A study of Mus musculus with 4 samples.

Results

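The genes described here are 47 genes of chromosomal DNA replication, taken by gene symbol and grouped by step, among 18193 genes with a probe set on either of the array types used. Replication starts with licensing, when the origin recognition complex, Cdc6 and Cdt1 load the Mcm2 to Mcm7 helicase onto DNA in G1. The kinases Cdc7/Dbf4 and cyclin E/Cdk2 then switch the helicase on with Cdc45 and the GINS complex. Polymerase alpha primes each new strand, and polymerases delta and epsilon copy the strands with the sliding clamp Pcna. Most of these genes are known targets of the E2F transcription factors and are transcribed most strongly around the G1/S transition, so in a dividing progenitor their RNA is commonly read as a sign of cycling.

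RNA came from granulocyte/monocyte progenitors (GMP), flow-purified marrow cells that give rise to neutrophils and monocytes, of wild type mice and of mice deficient in Icsbp (also called Irf8), a transcription factor of myeloid development. Each group had 2 arrays, 1 on the Affymetrix 430A and 1 on the larger MOE430_2 array, and each array carried RNA of a separate pool of marrow, made of 10 or more mice for wild type and 8 or more for Icsbp-deficient cells, all aged 10 to 16 weeks. The wild type 430A sample is labelled as GMP of mixed C57/Bl6 and S129Ola background with no genotype, and it was taken as wild type from the series' design text. The background of the other 3 samples, and the design of the Icsbp allele, were not given in the sources read here. An ENZO kit labelled the RNA of the Icsbp-deficient 430A sample, a one-cycle kit that of the MOE430_2 pair, and no kit is given for the wild type 430A sample, so kit and genotype cannot be told apart on the 430A arrays.

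Of the 47 genes, 46 had probe sets that both array types carry, and Chaf1a is not analysed here. The 46 genes had 82 shared probe sets, of which 76 passed the filter on low signals, and every one of the 46 kept at least 1. A further 18 probe sets are on the MOE430_2 array only. Each gene is represented by the brightest of its tested probe sets. Signals are normalised within each array type and have no unit, and genes are not set against each other by level. For marker lists the signals are summed over the list's genes and the sums compared between genotypes. A ratio is the log2(signal + 50) of Icsbp-deficient GMP minus that of wild type. The error after ± is limma's moderated standard error over n = 2 array types, which is borrowed largely from other genes, and adjusted p-values are limma's with Benjamini-Hochberg adjustment over 7820 genes.

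The GMP markers were bright on every array. The signals of Mpo, Elane, Prtn3, Ctsg, Cd34, Kit, Fcgr3, Csf1r and Csf3r summed to 72490 for wild type and 72220 for Icsbp-deficient GMP on the 430A arrays, and to 115000 and 120900 on the MOE430_2 arrays. Mpo, Elane, Prtn3 and Ctsg make up most of each sum, with 14430 (Ctsg) to 16940 (Mpo) in wild type on the 430A array. The sums therefore say little about the dimmer markers. Of the 9 genes Cd34, a surface marker of early progenitors, fell by 1.73 on the log2 scale and Fcgr3 rose by 1.00. The other 7 were not called. All 4 measured T cell markers (Cd3e, Cd3g, Cd4 and Cd8a) lay below the filter. These are bulk RNA measurements of a sorted population, so fewer cells in S phase and less replication RNA per cell cannot be told apart.

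Replication genes had slightly lower signals in Icsbp-deficient than in wild type GMP, and single genes rarely passed the test. Of the 46 genes, 1 fell, Pold2, and 0 rose, at an adjusted p under 0.05. Over all 7820 genes 2.47% were called lower, 3.35% higher and 5.82% in either direction, so the members' share of calls is close to or below the background. The mean ratio was below 0 for 43 of the 46 genes (93.5%), against 51.6% of all genes tested. The members' median log2 ratio was -0.205, and that of all genes was -0.0096. Leaving out 1 array removes the array type block. Members with a ratio below 0 then numbered 28 of 46 without the Icsbp-deficient 430A array, with medians of -0.107 for the members and -0.0624 for all genes. They numbered 30 of 45 without the wild type MOE430_2 array, with medians of -0.118 and -0.0895. Without the wild type 430A array they numbered 39 of 46, with medians of -0.287 and 0.0573. Without the Icsbp-deficient MOE430_2 array they numbered 43 of 46, with medians of -0.278 and 0.0831. On the 430A arrays alone the members' median was -0.232, and on the MOE430_2 arrays alone it was -0.171.

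The spread within the module was small. The ratios ran from -0.58 for Cdc6 to 0.18 for Pole2, and 21 of the 46 genes lay within 0.2 of 0. Ratios below -0.2 were found for 25 genes (54.3%), against 22.3% of all genes. On both array types the signal was lower in Icsbp-deficient GMP for 35 genes (76.1%), against 34.4% of all genes, and higher on both for Pole2 alone. At an unadjusted p under 0.05, 13 genes (28.3%) were lower and 0 were higher, against 9.95% of all genes lower. The 95% intervals of the limma fit included 0 for 33 genes, and the lowest bound of any member was -0.931, for Cdc6, so changes of up to that size were the largest that these intervals contain. The standard errors of the 46 genes ran from 0.085 to 0.24.

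**Figure D1:**
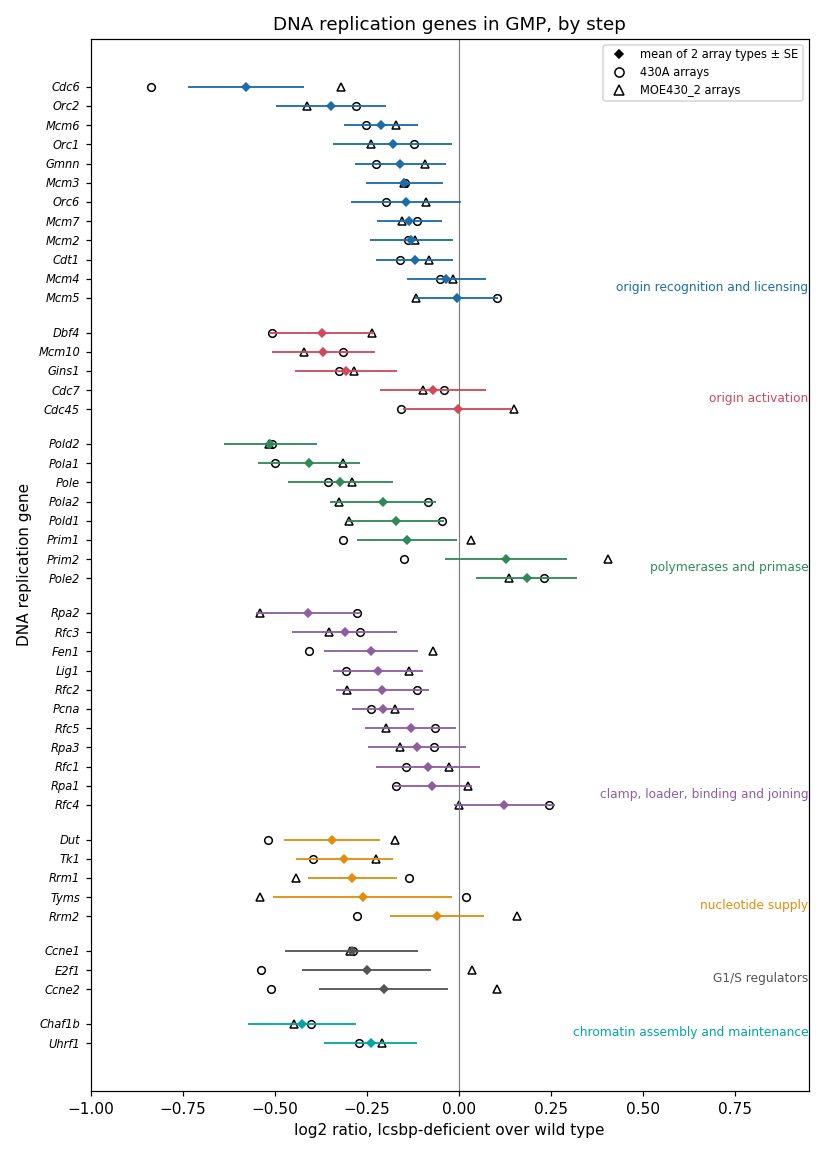
Log2 ratio of Icsbp-deficient over wild type GMP (horizontal axis) for the 46 measured replication genes (vertical axis), grouped by step and sorted within each. Diamonds are the mean over the 2 array types with limma's standard error, circles the 430A arrays and triangles the MOE430_2 arrays. Diamonds of 43 genes lie left of 0, between -0.58 and 0, with those of Prim2, Rfc4 and Pole2 to the right.

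The median of genes of like brightness was near that of all genes. The 1958 other genes whose mean log2 signal lay between the members' lower and upper quartiles had a median log2 ratio of -0.014, against -0.205 for the members.

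**Figure D2:**
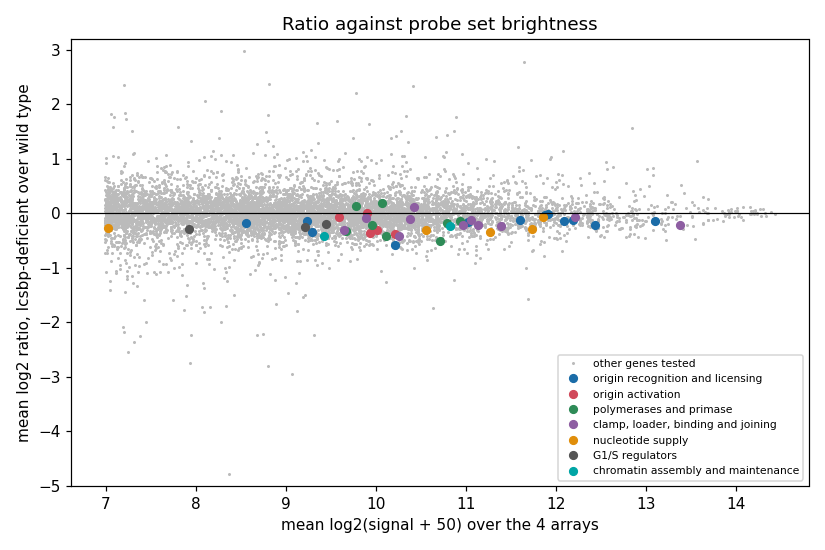
Mean log2 ratio (vertical axis) against mean log2(signal + 50) over the 4 arrays (horizontal axis) for all 7820 genes tested, in grey, with the replication genes coloured by step. The coloured points form a narrow band just below 0 inside the grey cloud, and genes with ratios beyond 1 in either direction are not among them.

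Licensing was the first step considered. None of its 12 genes was called, with 2 below an unadjusted p of 0.05, and their median log2 ratio was -0.146. Of all genes tested 9.95% were lower at that unadjusted p. This share applies to such counts in the later steps too. Cdc6, the ATPase that joins the origin recognition complex to the helicase, had signals of 1140 for wild type and 615.9 for Icsbp-deficient GMP on the 430A arrays, and of 1710 and 1359 on the MOE430_2 arrays. Icsbp-deficient GMP were lower on both, with ratios of -0.84 (430A) and -0.32 (MOE430_2) and a mean of -0.58 ± 0.16 (limma adjusted p = 0.0641, interval -0.931 to -0.227). This was the lowest ratio of the module, and it passed the threshold in 3 of 11 alternatives (limma adjusted p from 0.033 to 1). Its gap between array types was larger than for most members.

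Orc2, a subunit of the origin recognition complex, had signals of 643.5 and 521.4 in wild type and Icsbp-deficient GMP on the 430A arrays. On the MOE430_2 arrays they were 667.3 and 489.1, and the mean ratio was -0.35 ± 0.15 (limma adjusted p = 0.24). By this probe set, the brightest of Orc2, the ratio was below 0 on each array type. The other origin recognition subunits in the module, Orc1 at -0.18 ± 0.16 and Orc6 at -0.14 ± 0.15, lay closer to 0. Further tested Orc2 probe sets were at -0.05 ± 0.16 and -0.16 ± 0.17. The first of them differed in sign between array types, with 0.15 on 430A and -0.25 on MOE430_2. The gap between Orc2 and the other subunits therefore depends on the probe set. The helicase loader Cdt1 had a ratio of -0.12 ± 0.10 and its inhibitor Gmnn, geminin, one of -0.16 ± 0.12. The loader and its inhibitor thus had ratios within an error of each other.

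The 6 subunits of the Mcm helicase all had mean ratios below 0. Mcm6 had the lowest, -0.21 ± 0.10 (limma adjusted p = 0.283), with 4415 and 3697 in wild type and Icsbp-deficient GMP on the 430A arrays and 7820 and 6945 on the MOE430_2 arrays. Mcm3 was at -0.15 ± 0.10, Mcm7 at -0.13 ± 0.09 and Mcm2 at -0.13 ± 0.11. Mcm4, at -0.03 ± 0.11, and Mcm5, at -0.0059 ± 0.11, had the ratios nearest to 0. Mcm5 was also the only licensing gene with opposite signs on the array types, with 0.10 on 430A and -0.12 on MOE430_2. Products of these 6 genes act as 1 hexamer. Between their brightest probe sets, no pair of ratios lay further apart than the sum of its standard errors, which is not a test. Second probe sets of Mcm2, at -0.61 ± 0.14, and of Mcm7, at -0.41 ± 0.10, lay lower than these and further from Mcm5.

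Promoter windows, from 250 bases before to 50 after the annotated start in RefSeq GRCm38.p6, matched by symbol for 40 of the 47 genes. They were searched on both strands for the E2F words TTTGGCGC, TTTCCCGC, TTTGCCGC and TTTCGCGC, which can overlap one another on opposite strands. At least 1 word was found for 13 members (32.5%), against 704 of 27025 genes (2.6%). Among measured genes the median ratio was -0.18 for members with a word and -0.222 for those without. The IRF word GAAANNGAAA, searched likewise, was found for 2 members (5.0%), Orc2 and Pold2, against 3.99% of all genes, a share near the background. A match is a run of letters and was not tested as a binding site. The upstream 250 bases of Cdc6, the member with the lowest ratio, lie at chr11:98907901-98908150 on the plus strand, and are shown with the E2F word in capitals.
Cdc6: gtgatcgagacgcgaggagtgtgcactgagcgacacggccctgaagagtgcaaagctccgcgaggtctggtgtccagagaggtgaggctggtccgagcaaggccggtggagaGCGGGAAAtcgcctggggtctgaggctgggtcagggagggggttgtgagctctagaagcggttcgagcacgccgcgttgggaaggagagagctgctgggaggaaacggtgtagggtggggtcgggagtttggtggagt

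Shorter stretches of 40 bases show where the word lies upstream of other licensing genes and of the catalytic subunit of polymerase alpha, for comparison of the letters around it, with E2F words in capitals. They lie at chr4:108579411-108579450 on the plus strand for Orc1, chr8:75109340-75109379 on the plus strand for Mcm5, chr1:128359792-128359831 on the minus strand for Mcm6, chr5:138172025-138172064 on the minus strand for Mcm7 and chrX:93632270-93632309 on the minus strand for Pola1. In Mcm5 and Mcm6 a pair of words on opposite strands overlap, so the capitals run longer.
Orc1: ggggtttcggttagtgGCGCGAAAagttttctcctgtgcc
Mcm5: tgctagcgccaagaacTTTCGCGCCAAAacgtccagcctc
Mcm6: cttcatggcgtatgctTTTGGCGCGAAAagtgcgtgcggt
Mcm7: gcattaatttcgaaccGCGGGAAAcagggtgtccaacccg
Pola1: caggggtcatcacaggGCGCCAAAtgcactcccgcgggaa

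Counted from the annotated start, the capitals begin at base -27 in Orc1, -153 in Mcm5, -110 in Mcm6, -165 in Mcm7 and -138 in Pola1. The ratios of these genes were -0.41 for Pola1, -0.18 for Orc1 and -0.13 for Mcm7. Of those with overlapping words, Mcm6 had a ratio of -0.21 and Mcm5 one of -0.0059.

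Origin activation genes had a median log2 ratio of -0.306, with 0 of 5 called and 2 below an unadjusted p of 0.05. Dbf4, the regulatory partner of the kinase Cdc7, had signals of 1156 for wild type and 797.9 for Icsbp-deficient GMP on the 430A arrays, and 1448 and 1222 on the MOE430_2 arrays, a ratio of -0.37 ± 0.14 (limma adjusted p = 0.183). Mcm10, which helps the helicase to start unwinding, had 1135 and 903.8 on the 430A arrays and 985.5 and 723.2 on the MOE430_2 arrays, a ratio of -0.37 ± 0.14 (limma adjusted p = 0.183). For both genes the Icsbp-deficient array was the lower one on each type. The GINS subunit Gins1 was at -0.31 ± 0.14. Cdc7 itself was at -0.07 ± 0.14, and Cdc45, the helicase cofactor, at -0.0033 ± 0.15 with opposite signs on the array types (-0.16 and 0.15).

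Among polymerases and primase, 1 of 8 genes fell and 0 rose, and the median log2 ratio was -0.188. Pold2, the second subunit of polymerase delta, which makes the lagging strand, had signals of 1923 for wild type and 1338 for Icsbp-deficient GMP on the 430A arrays. On the MOE430_2 arrays the signals were 1979 and 1370. Wild type was higher on each array type by nearly the same amount, with ratios of -0.51 and -0.52, so Pold2 fell by 0.51 ± 0.13 on the log2 scale, a fold of 1.43 (limma adjusted p = 0.0444). The call lay close to the threshold. It ended under 6 of 11 alternatives that kept a test over 4 arrays, with adjusted p from 0.0269 to 1, the highest being without array type as a block, while the ratio stayed between -0.522 and -0.489. With any 1 array left out, which also leaves out the block, the adjusted p was 0.999 to 1. Pold2 has 1 probe set on these arrays. No E2F word was found in its windows, and the 250 bases before its first annotated start, chr11:5878257-5878506 on the minus strand, are shown because it is the called member.
Pold2: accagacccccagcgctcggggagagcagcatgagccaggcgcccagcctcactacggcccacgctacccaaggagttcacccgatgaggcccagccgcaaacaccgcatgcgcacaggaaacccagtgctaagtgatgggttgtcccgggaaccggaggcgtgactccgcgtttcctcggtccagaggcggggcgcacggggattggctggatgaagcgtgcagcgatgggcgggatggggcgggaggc

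Pola1, the catalytic subunit of polymerase alpha, which primes each new strand, had 1071 and 743.3 in wild type and Icsbp-deficient GMP on the 430A arrays and 1392 and 1109 on the MOE430_2 arrays, a ratio of -0.41 ± 0.14 (limma adjusted p = 0.139). The wild type array was again the higher one on each type. Its partner Pola2 was at -0.21 ± 0.14. The catalytic subunits of the leading and lagging strand polymerases, Pole at -0.32 ± 0.14 and Pold1 at -0.17 ± 0.13, had ratios below 0 as well. The primase subunits Prim1 at -0.14 ± 0.14 and Prim2 at 0.13 ± 0.17 differed in sign between array types, with Prim2 at -0.15 on 430A and 0.41 on MOE430_2. Pole2, the second subunit of polymerase epsilon, had the highest ratio of the module, 0.18 ± 0.14 (limma adjusted p = 0.524), with 919.4 and 1088 on the 430A arrays and 1003 and 1109 on the MOE430_2 arrays.

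Genes for the clamp, clamp loader, single-strand binding protein and Okazaki fragment joining had a median log2 ratio of -0.206, with 0 of 11 called and 2 below an unadjusted p of 0.05. Rpa2, a subunit of the RPA complex that coats single-stranded DNA, had 1439 and 1178 in wild type and Icsbp-deficient GMP on the 430A arrays and 1276 and 861.7 on the MOE430_2 arrays, a ratio of -0.41 ± 0.14 (limma adjusted p = 0.139). The other RPA subunits, Rpa1 at -0.07 ± 0.11 and Rpa3 at -0.11 ± 0.13, had ratios nearer to 0. Rfc3, a subunit of the loader that opens the clamp, had 750.6 and 614.7 on the 430A arrays and 943.1 and 727.9 on the MOE430_2 arrays, at -0.31 ± 0.14 (limma adjusted p = 0.274). Both genes were lower in Icsbp-deficient GMP on each array type. The remaining loader subunits ran from Rfc2 at -0.21 ± 0.13 through Rfc5 at -0.13 ± 0.12 and Rfc1 at -0.08 ± 0.14 to Rfc4 at 0.12 ± 0.14.

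Pcna, the sliding clamp, had the smallest standard error of the module. Its signals were 9604 for wild type and 8137 for Icsbp-deficient GMP on the 430A arrays, and 13590 and 12050 on the MOE430_2 arrays. The Icsbp-deficient array was lower on each type, at a mean ratio of -0.21 ± 0.085 (limma adjusted p = 0.218, interval -0.395 to -0.0159). The flap endonuclease Fen1, at -0.24 ± 0.13, and the ligase Lig1, at -0.22 ± 0.12, which finish Okazaki fragments, had ratios close to that of Pcna.

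Nucleotide supply genes had a median log2 ratio of -0.289, with 0 of 5 called and 3 below an unadjusted p of 0.05. Dut, the dUTPase that keeps uracil out of DNA, had 2850 and 1976 in wild type and Icsbp-deficient GMP on the 430A arrays and 2623 and 2321 on the MOE430_2 arrays, a ratio of -0.34 ± 0.13 (limma adjusted p = 0.178). Thymidine kinase, Tk1, had 1814 and 1367 on the 430A arrays and 1446 and 1229 on the MOE430_2 arrays, at -0.31 ± 0.13 (limma adjusted p = 0.232). For both enzymes the wild type array was the higher one on each type. Ribonucleotide reductase makes the deoxyribonucleotides, and its large subunit Rrm1 was at -0.29 ± 0.12 and its small subunit Rrm2 at -0.06 ± 0.13. Rrm2 differed in sign between array types, with -0.28 on 430A and 0.16 on MOE430_2. Its other tested probe sets were at -0.29 ± 0.12 and 0.05 ± 0.14, so the gap between the subunits depends on the probe set. Thymidylate synthase, Tyms, at -0.26 ± 0.24, was dim on every array, with signals from 59.08 to 108.7. Its error was the largest of the module, and its ratios were 0.02 on 430A and -0.54 on MOE430_2.

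The G1/S regulators had 0 of 3 called and a median log2 ratio of -0.25. Cyclin E1, Ccne1, had 210.0 and 163.1 in wild type and Icsbp-deficient GMP on the 430A arrays and 228.0 and 176.4 on the MOE430_2 arrays, at -0.29 ± 0.18 (limma adjusted p = 0.423). E2f1, the transcription factor that drives many of these genes, had 871.5 and 585.2 on the 430A arrays but 404.4 and 416.0 on the MOE430_2 arrays, at -0.25 ± 0.17 (limma adjusted p = 0.486). The genotypes therefore kept their order on both array types for Ccne1 and not for E2f1. Ccne2, at -0.20 ± 0.18, showed the same pattern as E2f1, with -0.51 on 430A and 0.10 on MOE430_2.

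By its brightest probe set, each measured gene of chromatin assembly and maintenance had ratios below 0 on both array types. Of the 2 genes 0 were called. Chaf1b, a subunit of the histone chaperone that follows the fork, had 644.8 and 476.0 in wild type and Icsbp-deficient GMP on the 430A arrays and 858.4 and 615.5 on the MOE430_2 arrays, a ratio of -0.43 ± 0.15 (limma adjusted p = 0.14). Uhrf1, which guides DNA methylation to new strands, had 2003 and 1652 on the 430A arrays and 1816 and 1566 on the MOE430_2 arrays, at -0.24 ± 0.13 (limma adjusted p = 0.341). A second tested Uhrf1 probe set had 1404 and 1280 on the 430A arrays but 438.3 and 524.8 on the MOE430_2 arrays. Its mean ratio was 0.05 ± 0.15. Chaf1b had the third lowest ratio of the module.

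**Figure D3:**
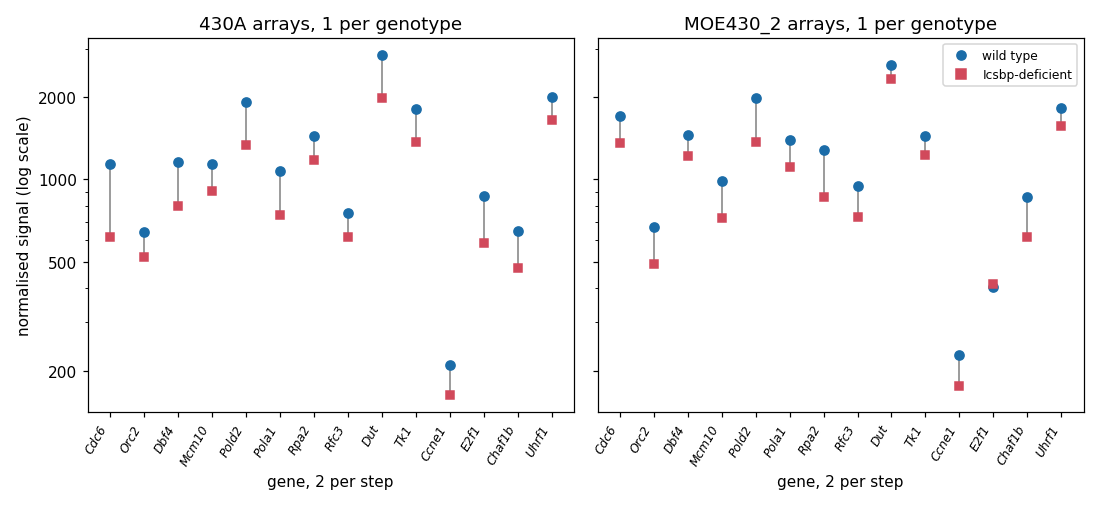
Normalised signal on a log axis (vertical) of the 2 members of each step with the largest absolute ratio (horizontal axis), with the 430A arrays at the left and the MOE430_2 arrays at the right, circles for wild type and squares for Icsbp-deficient GMP. Squares lie below circles for all 14 genes on the 430A arrays and for 13 on the MOE430_2 arrays, where E2f1 is at 404.4 and 416.0. The genes were chosen by the mean ratio of these same arrays, which favours agreement between array types. Of all 46 members, 35 were lower on both types. Heights are not comparable between genes.

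Counts over all tested probe sets of the members include the brightest one of each gene, already counted above. Of these 76 probe sets, 67 had ratios below 0 and 9 above. The brightest ones account for 43 of the 67 and 3 of the 9. With adjustment over all 13576 probe sets, of which 2.14% were called lower, 3 of the 76 were called lower and 0 higher. The 3 were those of Pold2, a second probe set of Mcm2 and a second one of Mcm7, the latter pair named after their values were seen. The second Mcm2 probe set had 3816 and 2141 in wild type and Icsbp-deficient GMP on the 430A arrays and 2336 and 1762 on the MOE430_2 arrays, at -0.61 ± 0.14 (limma adjusted p over probe sets = 0.0322). The brighter Mcm2 probe set was at -0.13 ± 0.11, so the probe sets of Mcm2 differed by 0.48. The second Mcm7 probe set had 6872 and 5025 on the 430A arrays and 6908 and 5336 on the MOE430_2 arrays, at -0.41 ± 0.10 (limma adjusted p over probe sets = 0.0422), and 2 further ones were at -0.31 and -0.10.

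Several probe sets were tested for 22 genes, and those of 6 genes lay on both sides of 0. The widest gap was 0.49, within Mcm3, where a dim probe set was at 0.12 and the others lay between -0.37 and -0.15. No member had probe sets beyond 0.5 in opposite directions. Where the probe sets of a gene differ, the transcript part that each reads was not analysed here.

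**Figure D4:**
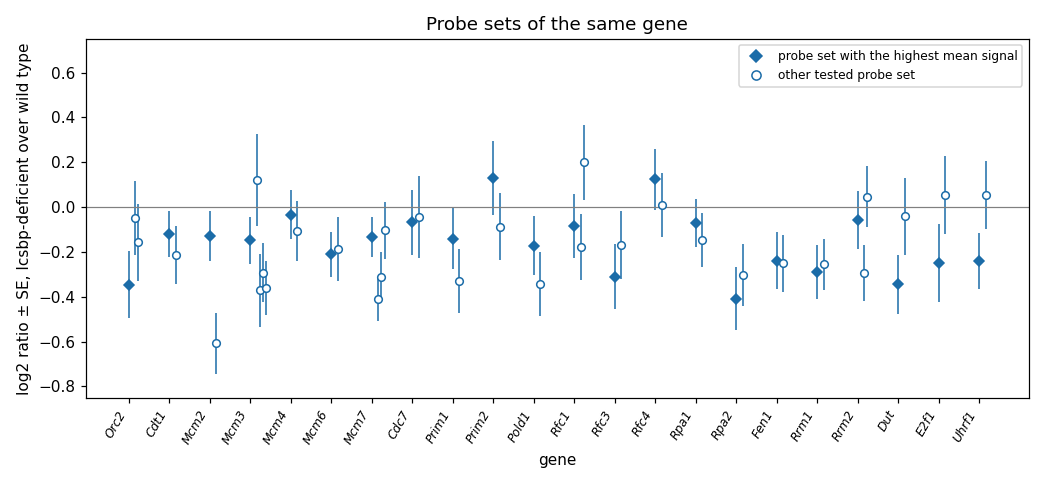
Log2 ratio with limma's standard error (vertical axis) for each tested probe set of the 22 genes with more than 1 (horizontal axis). Filled diamonds are the probe sets that stand for the gene and open circles the others; the second Mcm2 probe set, at -0.61, is the lowest point, and probe sets of Mcm3, Prim2, Rfc1, Rrm2, E2f1 and Uhrf1 reach above 0 beside others below it.

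The 18 probe sets found only on the MOE430_2 array cover 16 of the genes and have 1 array per genotype, with no test. Ratios were below 0 for 8, above 0 for 9 and 0 for 1, with a median of 0.053 and a range from -0.85 for Mcm10 to 1.02 for Prim2. Most of them were dim, 13 having a signal under 150 on both arrays. The bright one, of Mcm5, had 5793 for wild type and 5568 for Icsbp-deficient GMP, a ratio of -0.057, near that of its shared probe set.

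Genes of neighbouring functions were taken from fixed lists. Over all genes tested 2.47% were called lower and 3.35% higher. Of 18 tested genes that act at the fork but are not members, 0 were called and the median log2 ratio was -0.096. Their ratios were below 0 for 10 and above for 8, where 51.6% of all genes lay below 0. Of 22 other S phase genes 1 fell and 0 rose, with a median of -0.244 and ratios below 0 for 16. The one that fell was Hells, a chromatin remodeller of the SNF2 family, with 1660 and 1075 in wild type and Icsbp-deficient GMP on the 430A arrays and 2517 and 1857 on the MOE430_2 arrays, at -0.52 ± 0.13 (limma adjusted p = 0.0456). The wild type array was higher on each type, and the call ended in 6 of 11 alternatives (limma adjusted p from 0.0266 to 1) and with any 1 array left out. Of 28 mitosis genes 0 were called, with a median of -0.116 and ratios below 0 for 24, so ratios mostly below 0 were not particular to the members. Differences between these medians and that of the members were not tested.

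Genes of G1 control had ratios on both sides of 0, 7 above and 7 below, with a median log2 ratio of 0.03. Of the 14 tested, 1 was called lower and 1 higher, against 2.47% and 3.35% of all genes. Ccnd2, the D cyclin that works with Cdk4 and Cdk6 to pass the restriction point, had 2565 and 1547 in wild type and Icsbp-deficient GMP on the 430A arrays and 2619 and 1560 on the MOE430_2 arrays, and fell by 0.72 ± 0.12 (limma adjusted p = 0.00813). Rb1, the retinoblastoma protein that restrains E2F, had 438.3 and 658.0 on the 430A arrays and 659.3 and 1065 on the MOE430_2 arrays, and rose by 0.59 ± 0.15 (limma adjusted p = 0.0433). The difference had the same direction on both array types for each gene. The call of Ccnd2 ended in 2 of 11 alternatives (limma adjusted p from 0.00255 to 0.766) and that of Rb1 in 6 of 11 (0.0263 to 1), and both ended with any 1 array left out. Compared with these, the ratio of the replication genes' own regulator E2f1, given above, was smaller and differed in sign between array types.

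**Figure D5:**
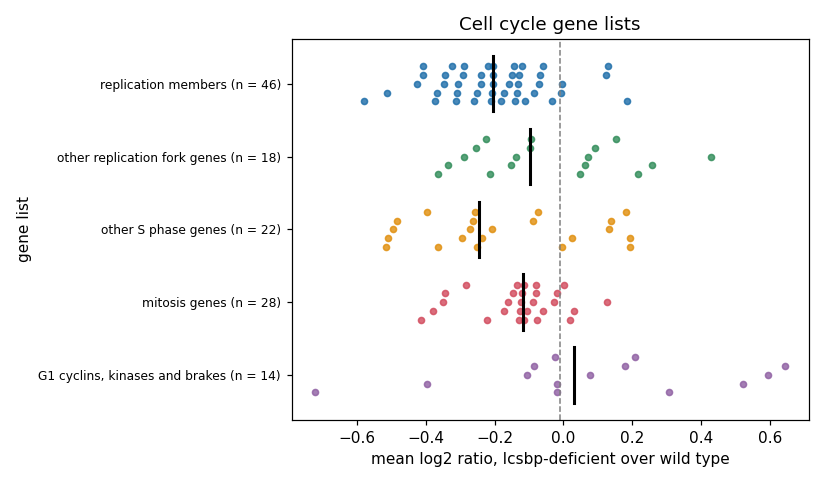
Mean log2 ratio of Icsbp-deficient over wild type GMP (horizontal axis) for each tested gene of the replication module and of 4 other cell cycle lists (vertical axis), with the list median as a black bar and the median of all genes, -0.0096, as a dashed line. The medians are -0.205 for the members, -0.096 for other fork genes, -0.244 for other S phase genes, -0.116 for mitosis genes and 0.03 for G1 genes, the last list reaching from -0.72 to 0.64.

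Markers of other cells moved with genotype beside these small shifts. Of 7 measured late neutrophil markers (Ltf, Camp, Ngp, Lcn2, Mmp8, Mmp9 and Cd177) 6 rose, and their summed signal went from 2321 in wild type to 7429 in Icsbp-deficient GMP on the 430A arrays and from 1913 to 11040 on the MOE430_2 arrays. All 8 eosinophil, basophil and mast cell markers fell, with sums of 6266 and 2169 on the 430A arrays and 8858 and 2221 on the MOE430_2 arrays. Of 5 tested erythroid markers 2 fell, Car1 and Car2, and the sum over 6 measured ones, of which Hba-a1 was below the filter, was 1571 and 748 on the 430A arrays and 1987 and 278.1 on the MOE430_2 arrays. Of 3 tested megakaryocyte markers Itga2b fell, at -0.86 ± 0.18, while Gp1bb at 0.24 ± 0.21 and Gp9 at 0.08 ± 0.22 were not called. In the remaining lists 0 of 2 tested B cell and 0 of 3 tested stem cell markers were called, and the B cell sums were 720.1 and 864.7 on the 430A arrays and 519.5 and 716.7 on the MOE430_2 arrays. Whether other cells were present, and any part of theirs in the replication genes' ratios, was not tested.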

How the data were processed

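The authors deposited 1 signal intensity per probe set for each of 4 arrays. Per the submitters' processing notes, GCOS made the MOE430_2 values; no settings are given in the sources used here. Deposited intensities were on unlike scales, with 2% trimmed means over shared probe sets of 498.5 (wild type 430A), 167.1 (Icsbp-deficient 430A), 160.4 (wild type MOE430_2) and 158.6 (Icsbp-deficient MOE430_2). The 22626 shared probe sets that are not controls were scaled to a trimmed mean of 500. After adding 50 and taking log2, quantile normalization was run within each array type. Probe sets under the 40th percentile of mean signal were left out, and 13576 remained. They were fitted with limma 3.58.1 in R 4.3.3 (array type as a block, intensity trend, two-sided test, 1 residual and 8.89 prior degrees of freedom), and p-values were adjusted over 7820 genes, each by its brightest probe set, with a threshold of 0.05. The number of arrays limits the precision. Of 20380 probe sets with 1 symbol in the platform annotation, 20351 matched RefSeq GRCm38.p6. In each step the 2 members with the largest absolute ratios are given on all arrays, with any called member. This choice favours members whose ratios share a sign on both array types. Members and lists were chosen with earlier results of these data known. Replicates were numbered in accession order, which pairs nothing. A further Icsbp-deficient preparation named in the design text was not analysed here.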

Additional observations from a re-analysis of the deposited data

How the results depend on the processing

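0 members were called higher under every alternative with a test. The count called lower, 1 in the main analysis, was 0 with an offset of 16, with no filter, with quantile normalization over all 4 arrays, with the values as deposited, with no intensity trend and with no array type block. It was 2, Cdc6 and Pold2, with a filter at the 60th percentile, with scaling only, and with the fit on 1 probe set a gene, which was added after seeing the data. It was 1 with cyclic loess and with the mean of a gene's probe sets. The count of all genes called, 455, was 353 with an offset of 16, 234 with no filter, 281 with the values as deposited, 196 with no intensity trend, 1 with no array type block and 579 with the fit on 1 probe set a gene. The members' median ratio stayed between -0.212 and -0.188 in these alternatives. Of 503 member ratios under alternatives that keep all 4 arrays, 3 had the opposite sign: Mcm5 was 0.00831 with scaling only and 0.00972 with quantile normalization over all 4 arrays, and Cdc45 was 0.0114 with cyclic loess. The cause was not tested.

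With 1 array left out, array type and genotype overlap and the lone array is assumed to vary like the other group. The members called lower were then 0 in each case, all genes called were 30 to 39, and the members' median ratio ran from -0.287 to -0.107. Of 183 member ratios 37 had the opposite sign. Ratios ran for Cdc45 from -0.152 to 0.145, for Cdc7 from -0.189 to 0.0517, for Pold1 from -0.5 to 0.157, for Rfc4 from -0.396 to 0.642, for Lig1 from -0.449 to 0.00898, for E2f1 from -0.76 to 0.26, for Orc6 from -0.315 to 0.0289. They ran for Cdt1 from -0.282 to 0.0421, for Gmnn from -0.507 to 0.19, for Mcm4 from -0.224 to 0.157, for Mcm5 from -0.131 to 0.119, for Mcm6 from -0.662 to 0.239, for Mcm7 from -0.368 to 0.0997, for Prim1 from -0.522 to 0.241. They ran further for Pcna from -0.487 to 0.076, for Rpa1 from -0.175 to 0.0304, for Rpa3 from -0.429 to 0.203, for Fen1 from -0.731 to 0.252, for Rrm2 from -0.368 to 0.25, for Ccne2 from -0.819 to 0.411, for Prim2 from -0.0735 to 0.331. The array type block sets 1 wild type array against 1 Icsbp-deficient array; the labels give no replicate numbers that pair the pools themselves.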
